A study of Mus musculus with 18 samples.

Results

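The mitochondrial respiratory chain passes electrons from NADH and succinate through complexes I to IV to oxygen, and complex V, the ATP synthase, uses the proton gradient built up on the way to make ATP. Most of its subunits are encoded by nuclear genes and imported into mitochondria, and the remainder are encoded by the mitochondrial genome. In macrophages the chain also supplies signals for inflammatory gene expression, through reactive oxygen species and through the succinate that complex II oxidises.

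The nuclear-encoded subunits were taken from the gene table by symbol, as rows that begin with Nduf and one of the letters a, b, c, s or v, with Sdha to Sdhd, with Uqcr, with Cox and a digit from 4 to 8, or with Atp5. Cox6a2, the Ndufaf assembly factors and numbered pseudogene copies were left out. This gave 93 of the 45777 rows of the table, of which 45 belong by name to complex I, 4 to complex II, 8 to complex III, 17 to complex IV and 19 to complex V. Some unnumbered pseudogene rows remain among them, and Ndufb1-ps, named in several comparisons below, is annotated as a long non-coding RNA. Ndufa4 is counted with complex I after its symbol, although its protein is now placed in complex IV, and Cyc1, a core subunit of complex III, is outside the naming rule.

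RNA was measured by stranded mRNA sequencing in RAW264.7, a mouse macrophage-like line described as wild type, after 6 h in serum-free medium. The series concerns SB24011, which its title describes as an inhibitor of the interaction of STING with TRIM29, alone or with cGAMP, a cyclic dinucleotide that activates STING. The 18 libraries form 6 groups of 3. In 3 groups cGAMP (20 uM) was given together with another compound, which was SB24011 at either 10 or 20 uM, or 7a at 20 uM, given in the design text as a negative analog of SB24011. The other groups had SB24011 alone (20 uM), cGAMP alone (20 uM) or DMSO. The labels do not say whether the 3 libraries of a group came from separate cultures, so p-values measure the spread between libraries, which may be technical.

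Library totals ranged from 45165780 to 65810517 counts. Of 8 macrophage markers, 7 reached 1 CPM (reads relative to library size, TMM-scaled), 1 of 3 endothelial markers did (their sum ran between 0.345 and 5.08 CPM), and no marker of T cells, B cells, fibroblasts, epithelium or muscle did. In bulk RNA, fewer cells of a type and less RNA per cell cannot be told apart.

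Of the 93 subunit genes, 86 passed the filter on low counts. The 7 others were at or near 0 in every group, and 5 of them, Cox6b2, Cox7b2, Cox8b, Cox8c and Ndufa11b, had no read in any library. Among the 86 tested genes 81 are annotated as protein coding, and 78 had a mean of at least 10 CPM. The within-group coefficient of variation of those 78 genes had a median of 3.61% and ranged between 0.928% and 9.43%. Of the 86 tested genes 7 overlap on the map another tested gene with a higher level, among them Cox7a2, which overlaps Tmem30a, Atp5j, which overlaps Gabpa, and Ndufb11, which overlaps Rbm10. The sources used here do not say how reads over such overlaps were counted.

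Bases before the start used in the promoter table are shown here for 3 of the genes that fell most with SB24011. They identify genes that are described closely below. Uqcrh encodes the hinge protein of complex III, Atp5g3 a c subunit of the ATP synthase rotor and Atp5k subunit e, which joins ATP synthase dimers. The bases end just before that start for Uqcrh and Atp5g3, and stop short of it for Atp5k, whose window leaves out an annotated exon. The Atp5g3 stretch lies inside the annotated span of its gene (73908447 to 73912464), so it is not upstream of the whole gene. All 3 genes lie on the minus strand, and the sequences come from RefSeq (GRCm38.p6), at chr4:116075071-116075220 for Uqcrh, chr2:73911327-73911476 for Atp5g3 and chr5:108434440-108434549 for Atp5k. Capitals mark exact matches to the letters of factor motifs on either strand: an ETS core (CCGGAAGT) in Uqcrh, a half-site of the estrogen-related receptor type (AAGGTCA) in Atp5g3 and a palindrome of 2 overlapping NRF1 cores (GCATGCGC) in Atp5k. Sdhd, which fell more than Atp5g3 and Atp5k with SB24011 alone, is not shown. Its only match to the letters searched here, a half-site, begins at base 37 after the start and not before it.
Uqcrh: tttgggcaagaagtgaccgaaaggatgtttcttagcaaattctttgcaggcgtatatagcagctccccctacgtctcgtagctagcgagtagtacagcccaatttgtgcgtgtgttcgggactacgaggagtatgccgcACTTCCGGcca
Atp5g3: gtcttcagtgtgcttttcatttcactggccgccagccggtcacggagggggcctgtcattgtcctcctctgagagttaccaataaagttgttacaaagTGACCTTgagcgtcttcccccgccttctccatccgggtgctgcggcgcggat
Atp5k: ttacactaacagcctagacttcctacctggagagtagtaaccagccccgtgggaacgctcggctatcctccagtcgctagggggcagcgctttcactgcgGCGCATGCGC

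NRF1, the ETS factor GABP and YY1 are known regulators of respiratory chain genes, and the estrogen-related receptors act with PGC-1 coactivators on them. The promoter table, with 250 bases before and 50 after each start, holds 71 of the 93 genes, 68 of them tested, and lacks the other 22. An NRF1 core was found in 10 of the 71 subunit promoters (14.1%), against 3.05% of all 27025 promoters. A YY1 core (AAGATGGC) was found in 10 (14.1%), against 3.19% of all promoters. An ETS core was found in 5 (7.04%), against 4.31% of all. The half-site AAGGTCA was added after the sequences and results were seen. It was found in 8 subunit promoters (11.3%), against 5.38% of all, and 7 of these 8 genes were called lower with SB24011 alone: Atp5e, Atp5g3, Atp5k, Atp5l, Ndufb2, Ndufb4 and Sdhd. NRF1 cores were in 4 of the 34 promoters of genes called lower with SB24011 and in 6 of the 34 promoters of tested genes that were not. The same counts were 5 and 5 for the YY1 core, 4 and 1 for the ETS core and 7 and 1 for the half-site. These matches are a description of letters within the window and no test was made of them.

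The subunit genes were highly transcribed. In DMSO, the most abundant by the deposited TPM (transcript abundance per length) were Atp5b, the catalytic beta subunit of ATP synthase, at 1846 ± 57.2 TPM, Atp5a1, the alpha subunit, at 1028 ± 14.9 TPM, and Cox4i1, a regulatory subunit of complex IV, at 853 ± 66.2 TPM (SD, n = 3 each). The median over the 78 genes with at least 10 CPM was 221 ± 10.5 TPM with cGAMP and 7a, 226 ± 3.19 with cGAMP alone, 206 ± 6.63 with 10 uM SB24011 on cGAMP and 211 ± 9.89 with 20 uM, 228 ± 4.60 with SB24011 alone and 246 ± 12.1 TPM in DMSO (SD, n = 3). The same genes took 1.05% ± 0.0191 of all counts with SB24011 alone and 1.11% ± 0.00727 in DMSO. By complex, the median gene was lowest in complex I, at 149 ± 1.59 TPM in DMSO, and highest in complex IV, at 469 ± 24.5 TPM.

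SB24011 alone was compared with DMSO to ask what the compound does without STING agonist. Of the 86 tested subunit genes 39 were called lower and 1 higher (edgeR's quasi-likelihood test, adjusted p under 0.05 by Benjamini-Hochberg over all 14650 genes tested), where 24.3% of all genes tested were called lower and 20.4% higher. The median log2 difference was -0.13 over the subunits and -0.01 over all genes tested. Among 1515 tested genes of like length the median was 0.03. With libraries scaled by library size alone the counts were 23 lower and 4 higher, and with the replicate number as a block they were 43 lower and 2 higher. Without 1 library the subunits called higher, led by Uqcrq, numbered 2 without DMSO replicate 3, 3 without SB24011 replicate 1 and 2 without SB24011 replicate 2. By complex, the share called lower was 78.9% in complex V, 62.5% in III, 50% in II, 38.5% in IV and 28.6% in I, and the shares were not tested against each other.

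In complex V, 15 of 19 tested genes fell with SB24011 alone and none rose, with a median log2 difference of -0.26. The fall reached both parts of the enzyme: 4 of 5 genes of the catalytic head and central stalk were called lower, and 11 of 12 genes of the membrane sector and peripheral stalk. Atp5b, the most abundant gene of the set, was not called. Atp5b had 1544, 1547 and 1597 CPM in the SB24011 libraries, against 1604, 1581 and 1620 CPM in the DMSO libraries, and the groups overlapped.

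The c-ring of ATP synthase is built from 1 mature peptide encoded by 3 genes, Atp5g1, Atp5g2 and Atp5g3. Atp5g3 (chromosome 2, 73908447 to 73912464, GRCm38) had 165, 190.03 and 177 CPM in the SB24011 libraries, against 236, 264 and 252 CPM in the DMSO libraries, and the groups did not overlap. Its log2 difference was -0.50 ± 0.06 (SE, edgeR adjusted p = 3.76e-06). Atp5g1 fell by 0.29 on the log2 scale, to 83.2 ± 5.15 CPM with SB24011, against 102 ± 6.60 CPM in DMSO (SD, n = 3). Atp5g2 was not called, with 141 ± 3.71 CPM with SB24011 and 143 ± 2.28 CPM in DMSO.

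The make-up of c-subunit mRNA is given here as a share of the summed TPM of the 3 genes. Atp5g3 made up 43.5% ± 0.887 with SB24011 alone and 50.1% ± 0.893 in DMSO, while Atp5g2 made up 37.8% ± 1.09 with SB24011 alone and 31.3% ± 1.07 in DMSO (SD, n = 3). On cGAMP, Atp5g3 made up 50.9% ± 0.165 with cGAMP alone, 45.2% ± 1.05 with 10 uM and 43.8% ± 0.594 with 20 uM SB24011. With 7a on cGAMP it was 48.9% ± 1.19. No library with SB24011 reached the Atp5g3 share of any library without it, while the Atp5g1 share stayed between 17.6% and 18.7% in the group means.

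**Figure D1:**
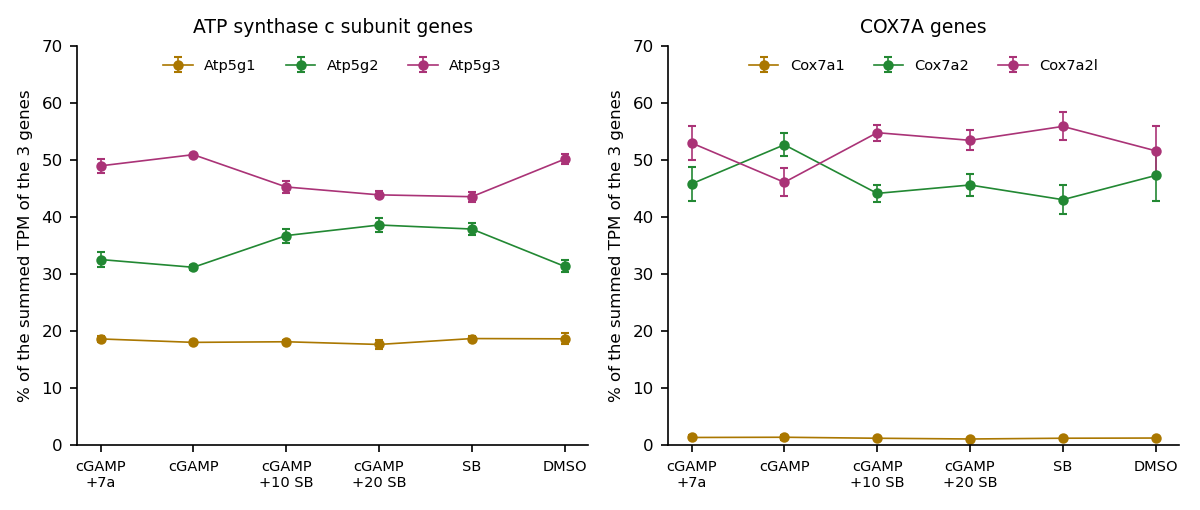
Shares of the summed TPM (y axis, percent) of the 3 ATP synthase c-subunit genes (left) and of the 3 COX7A genes (right) by treatment group (x axis, doses of SB24011 in uM); points are means and bars the SD of 3 libraries. The Atp5g3 share was 43.5% with SB24011 alone and 50.1% in DMSO, and Cox7a1 stayed near 1% in every group.

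A further 3 ATP synthase genes fell by over 0.4 on the log2 scale with SB24011 alone. Atp5k (chromosome 5, 108433246 to 108434399) had 33.0, 37.0 and 36.2 CPM in the SB24011 libraries, against 46.3, 51.7 and 52.6 CPM in the DMSO libraries. Its groups did not overlap, and its log2 difference was -0.50 ± 0.09 (SE, edgeR adjusted p = 0.000139). Atp5j2, which encodes subunit f of the membrane sector, averaged 67.4 ± 2.33 CPM with SB24011 and 91.4 ± 2.38 CPM in DMSO (SD, n = 3; log2 difference -0.44). Atp5mpl, which encodes a small protein attached to the ATP synthase membrane sector, averaged 42.1 ± 0.346 CPM with SB24011 and 56.8 ± 2.61 CPM in DMSO (log2 difference -0.43).

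Complex III held both the deepest fall and the 1 rise with SB24011 alone. Uqcrh (chromosome 4, 116066965 to 116075070), whose acidic hinge protein helps cytochrome c1 dock cytochrome c, had 82.3, 78.9 and 74.5 CPM in the SB24011 libraries, against 161, 167 and 161 CPM in the DMSO libraries. Every SB24011 library was far below every DMSO library, and the level was 0.482 times that of DMSO (log2 difference -1.05 ± 0.05, SE; edgeR adjusted p = 1.87e-10). Uqcrq (chromosome 11, 53427922 to 53430831), which encodes a small subunit of the same complex, had 114.2, 114.0 and 113.7 CPM in the SB24011 libraries, against 85.6, 89.8 and 86.7 CPM in the DMSO libraries. The groups did not overlap, and Uqcrq was 1.30 times as high with SB24011 (log2 difference 0.38 ± 0.05; adjusted p = 8.22e-06).

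Of the other complex III genes, Uqcr11, Uqcrfs1, which encodes the Rieske iron-sulfur protein, Uqcr10 and Uqcrb fell by between 0.15 and 0.33 on the log2 scale. The core proteins Uqcrc1 and Uqcrc2 were not called, with log2 differences of -0.05 and 0.06. In total 5 of 8 fell and 1 rose. Cyc1, which is outside the set, varied widely between libraries, with a log2 difference of -0.32 ± 0.27 (SE, edgeR adjusted p = 0.356).

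**Figure D2:**
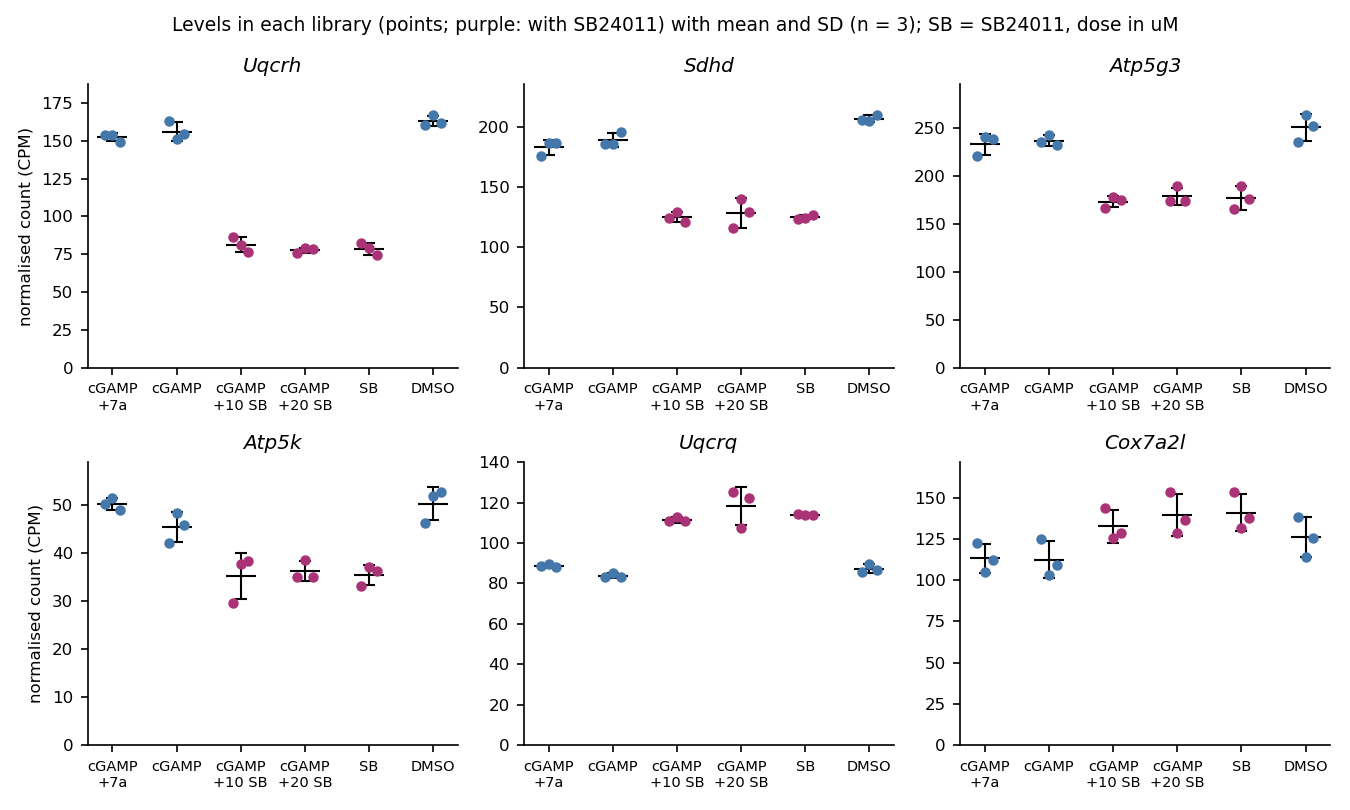
Normalised counts (CPM, y axes starting at 0) of 6 subunit genes in each of the 18 libraries by treatment group (x axes; SB is SB24011, its dose in uM), with the mean and SD of 3 libraries. Uqcrh sat between 74.5 and 86.4 CPM in the 9 libraries with SB24011 and between 149 and 167 CPM in the 9 without it.

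In complex II the fall lay in the membrane anchors. Sdhd (chromosome 9, 50596340 to 50603849), 1 of the 2 subunits that hold succinate dehydrogenase in the inner membrane and bind ubiquinone, had 123.8, 124.2 and 127.0 CPM in the SB24011 libraries, against 206, 204 and 209.8 CPM in the DMSO libraries. The groups were far apart, and the level with SB24011 was 0.605 times that of DMSO (log2 difference -0.72 ± 0.06, SE; edgeR adjusted p = 4.39e-08). The other anchor, Sdhc, averaged 118 ± 6.17 CPM with SB24011 and 136 ± 1.48 CPM in DMSO (log2 difference -0.21 ± 0.04; adjusted p = 0.0011). The catalytic subunits were not called, the flavoprotein Sdha at 306 ± 2.68 CPM with SB24011 and 313 ± 4.90 CPM in DMSO, and the iron-sulfur protein Sdhb at 109 ± 0.876 CPM with SB24011 and 106 ± 5.81 CPM in DMSO.

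In complex IV, 5 of 13 tested genes fell with SB24011 alone and none rose. They were Cox6b1 (log2 difference -0.33 ± 0.05), Cox7a2 (-0.32 ± 0.05), Cox7c (-0.24 ± 0.05), Cox7b (-0.20) and Cox8a (-0.16), all small nuclear subunits that surround the catalytic core. Cox4i1, Cox5a and Cox5b, larger nuclear subunits, were not called, with log2 differences of -0.06, -0.09 and -0.04. The small subunits Cox6a1 and Cox6c were not called either, nor was Cox7a2l, so not every small subunit fell. The Cox7a2 call was lost on the deposited FPKM values with limma (log2 difference -0.05, adjusted p = 0.79), and its overlap with the more abundant Tmem30a is named above.

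The muscle and testis forms of complex IV subunits were nearly silent in every group. Cox8a was the only COX8 gene with reads, Cox7b the only COX7B gene and Cox6b1 the only COX6B gene. Cox4i1 made up at least 99.9% of the COX4 TPM in the group means, and Cox4i2, the lung form, was at 0.103 CPM on average. Cox7a1, the muscle form, averaged 1.02 ± 0.166 CPM with SB24011 and 1.01 ± 0.0598 CPM in DMSO (SD, n = 3). Ndufa4l2, a relative of Ndufa4, had 64 reads in all over the 18 libraries and was not tested.

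Complex I is the largest of the 5. With SB24011 alone 12 of 42 tested genes fell and none rose, with a median log2 difference of -0.07. Of the 7 core subunits that carry the electron path, 1 was called, Ndufs1 at -0.15, and of the 31 other genes with at least 10 CPM, 11 were. The deepest fall was that of Ndufa5, an accessory subunit of the peripheral arm, which had 19.1, 21.6 and 21.1 CPM in the SB24011 libraries, against 23.6, 29.6 and 29.0 CPM in the DMSO libraries (log2 difference -0.41 ± 0.11, SE; edgeR adjusted p = 0.0061). Its groups did not overlap, although the lowest DMSO library came close. Ndufb3, Ndufb1-ps and Ndufb10, of the membrane arm by name, fell by 0.26, 0.25 and 0.25. The 16 called members with the largest differences by complex under SB24011 kept their call in each of the 6 fits that left out 1 library of either group. Smaller calls were less stable, and 31 to 40 subunits were called lower in these fits. Among all 15 alternative settings, Ndufb3 and Ndufb10 each lost their call in 1, and Cox7a2 lost its call in 2, both on the FPKM values.

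**Figure D3:**
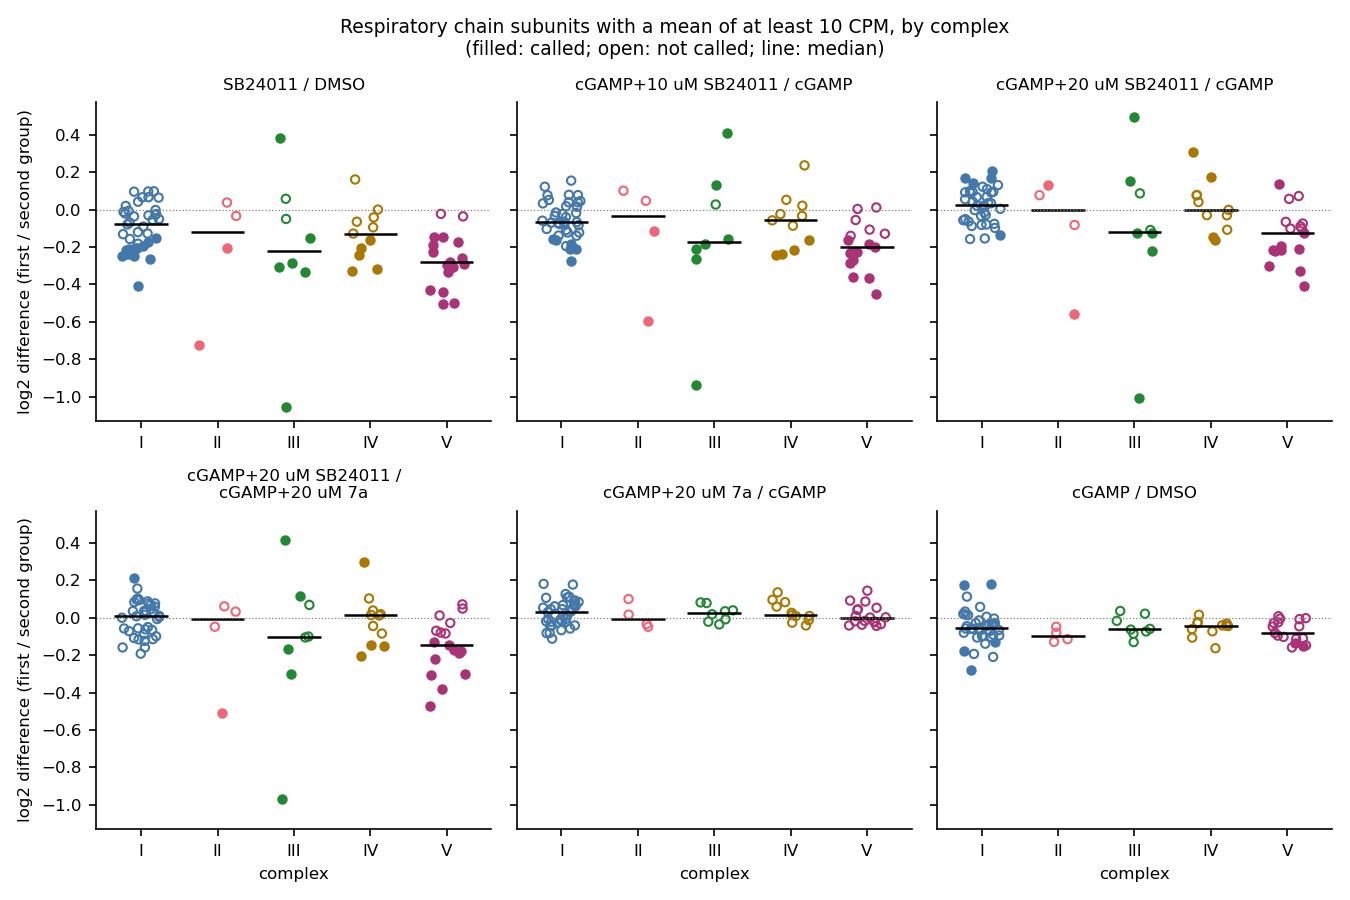
Log2 differences (y axis) of the 78 subunit genes with at least 10 CPM, by complex (x axis), in 6 comparisons named first group / second group; filled points were called at an adjusted p under 0.05, open points were not, and lines are medians. Uqcrh was the lowest point in the 4 comparisons with SB24011 on top, between -1.05 and -0.94, and no point was called for 7a against cGAMP.

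On cGAMP, 10 uM SB24011 lowered 28 of the 86 tested subunits and raised 2, where 19.1% of all genes tested were called lower and 19.9% higher. At 20 uM, 17 (19.8%) were lower and 10 (11.6%) higher, where 20.6% of all genes tested were lower and 21.7% higher. The share of subunits called lower at 20 uM was thus close to that of all genes tested. At 10 uM it was 32.6%. The median log2 difference over the subunits was -0.07 at 10 uM and -0.01 at 20 uM, against 0.02 over all genes tested at either dose. Over the 1515 tested genes of like length it was 0.04 at 10 uM and 0.10 at 20 uM. With libraries scaled by library size alone the counts at 20 uM were 10 lower and 12 higher, and at 10 uM 21 lower and 4 higher.

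The deepest changes held at both doses. Uqcrh averaged 156 ± 6.14 CPM with cGAMP alone, 81.3 ± 5.10 CPM with 10 uM and 77.7 ± 1.58 CPM with 20 uM SB24011 (SD, n = 3), with log2 differences from cGAMP alone of -0.94 and -1.01 (edgeR adjusted p = 1.31e-09 and 5.17e-10). Sdhd averaged 189 ± 5.86 CPM with cGAMP alone, 125 ± 4.17 CPM with 10 uM and 129 ± 12.3 CPM with 20 uM. Its 3 libraries at 20 uM, with 116, 140.4 and 129.6 CPM, spread more than those at 10 uM and stayed below all 3 with cGAMP alone, which had 186, 186 and 196 CPM.

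In complex V, 11 genes fell at 10 uM and 9 at 20 uM. Atp5g3 averaged 237 ± 5.44 CPM with cGAMP alone, 173 ± 5.98 CPM with 10 uM and 179 ± 8.94 CPM with 20 uM SB24011. Atp5k averaged 45.3 ± 3.11 CPM with cGAMP alone, 35.1 ± 4.80 CPM with 10 uM and 36.1 ± 2.07 CPM with 20 uM. Atp5j2 and Atp5md fell by 0.36 and 0.28 at 10 uM and by 0.30 and 0.22 at 20 uM. Atp5g2 was called higher at 20 uM (log2 difference 0.14).

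The genes that rose on cGAMP were led by Uqcrq at both doses. It averaged 83.9 ± 1.19 CPM with cGAMP alone, 111 ± 1.38 CPM with 10 uM and 118 ± 9.36 CPM with 20 uM, with log2 differences of 0.41 and 0.50 (edgeR adjusted p = 6.2e-06 and 6.88e-07). Uqcrc2, a core protein of the same complex, was the other gene called higher at both doses, by 0.13 at 10 uM and 0.15 at 20 uM. At 20 uM, Cox7a2l, a factor of supercomplex assembly that resembles Cox7a2, had 153, 128 and 137 CPM with SB24011 on cGAMP, against 125, 103 and 109 CPM with cGAMP alone (log2 difference 0.31 ± 0.09, SE; adjusted p = 0.013). Replicate 1 was the highest and replicate 2 the lowest library of Cox7a2l in each of the 6 groups. Its call was lost without replicate 2 of cGAMP alone (adjusted p = 0.0676) and without replicate 1 of cGAMP with 20 uM SB24011 (adjusted p = 0.071).

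The complex I genes that rose at 20 uM were Ndufa1, Ndufv1, Ndufa7 and Ndufa6, by 0.21, 0.17, 0.17 and 0.14 on the log2 scale, and Sdhb and Cox6a1 rose by 0.13 and 0.18. Ndufv1 encodes the subunit that binds NADH. The libraries of Ndufa1 overlapped between the groups. Each of these 6 calls was lost in 3 or 4 of the 6 fits that left out 1 library, with adjusted p-values between 0.0527 and 0.17, and at least 1 of them was lost whichever library was left out. The number of genes called higher at 20 uM, 10 in all, was 3 without replicate 2 of cGAMP alone, 6 without its replicate 3, and 5 and 6 without replicates 1 and 3 of cGAMP with 20 uM SB24011. The 17 called lower became 11 without replicate 1 of either group, and 4 higher and 11 lower without the library set of replicate 1 in all groups. Only 2 higher and 11 lower were called when the fit held the compared groups alone.

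At 10 uM, Ndufs6, an accessory subunit of the electron-entry arm, fell by 0.28 ± 0.07 (adjusted p = 0.00464). Ndufb1-ps, Ndufb3 and Ndufb2 fell by 0.21, 0.21 and 0.18, and Cox7a2, Cox6b1 and Cox7c by 0.24, 0.24 and 0.22. Uqcr11 fell by 0.27 at 10 uM and by 0.22 at 20 uM, and Cox6b1 by 0.16 at 20 uM. At 20 uM the calls of Uqcr11 and Cox6b1 were each lost in 3 of 6 fits without 1 library, with adjusted p-values up to 0.0924. For Uqcr11 these were replicate 3 of cGAMP alone and replicates 1 and 2 with 20 uM SB24011, and for Cox6b1 replicate 1 of cGAMP alone and replicates 1 and 3 with 20 uM SB24011. At 10 uM the calls of Ndufb1-ps, Ndufb3 and Ndufb2 were lost in 1, 2 and 4 of 6 such fits, and that of Sdhc, which fell by 0.12, in all 6, with adjusted p-values up to 0.136. Ndufb1-ps lost its call without replicate 3 with 10 uM SB24011, and Ndufb3 without its replicate 1 or replicate 3 of cGAMP alone. Ndufb2 kept its call only without replicate 3 of either group. Without replicate 3 of cGAMP with 10 uM SB24011, 1 gene in place of 2 was called higher.

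A comparison of the doses themselves called no subunit. With 20 uM against 10 uM SB24011 on cGAMP, edgeR called 0 of 86 subunits in either direction, with 11 at an unadjusted p under 0.05, and both DESeq2 and limma on FPKM called 0. Over all genes tested 0% were called higher and 0% lower, with 404 genes at an unadjusted p under 0.05. The median log2 difference was 0.06 over the subunits and 0.00 over all genes tested. For Uqcrh the 95% interval of the difference ran between -0.18 and 0.04, and for Sdhd between -0.08 and 0.16.

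The analog 7a was set against SB24011 at the same dose on cGAMP. With 7a on cGAMP against cGAMP alone, edgeR called 0 of 86 subunits higher or lower, with 5 at an unadjusted p under 0.05, and DESeq2 and limma on FPKM also called 0. Over all genes tested 0% were called higher and 0% lower, with 1208 genes at an unadjusted p under 0.05. Uqcrh had 154.0, 153.6 and 149.2 CPM with 7a on cGAMP, against 163, 151 and 154 CPM with cGAMP alone, and the groups overlapped (95% interval of the log2 difference -0.14 to 0.07). For Sdhd the interval was -0.17 to 0.07, for Atp5g3 -0.15 to 0.10, for Atp5k -0.04 to 0.33 and for Uqcrq -0.02 to 0.19.

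The direct comparison of the pair, 20 uM SB24011 against 20 uM 7a, both on cGAMP, called 17 subunits lower (19.8%) and 4 higher (4.65%). Of all genes tested 16.7% were lower and 19.7% higher. The median log2 difference was -0.05 over the subunits, 0.01 over all genes tested and -0.02 over the 1515 genes of like length. Uqcrh averaged 77.7 ± 1.58 CPM with SB24011 and 152 ± 2.68 CPM with 7a (SD, n = 3; log2 difference -0.97 ± 0.05, SE; edgeR adjusted p = 1.09e-09). Sdhd was lower with SB24011 than with 7a by 0.51 ± 0.06 on the log2 scale, Atp5k by 0.47 ± 0.09, Atp5g3 by 0.38 ± 0.06, Atp5j2 by 0.31 ± 0.04 and Atp5g1 by 0.30 ± 0.06. In complex V, 10 of 19 tested genes were lower, and in complex I none of 42 was lower and Ndufv1 was higher by 0.21. Uqcrq was higher with SB24011 by 0.41 ± 0.05, Cox7a2l by 0.30 ± 0.09 and Uqcrc2 by 0.12. The changes from cGAMP alone share the cGAMP libraries with those of 7a, and this comparison shares its SB24011 libraries with the one above.

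The Cox7a2 value in this pair, -0.20 ± 0.05 from counts, had the opposite sign on the FPKM values, 0.29, where it was not called. The 4 genes called higher became 1 without replicate 1 of cGAMP with 20 uM SB24011 and 2 without replicate 2 of 7a. Without the first of these libraries the adjusted p was 0.0582 for Ndufv1, 0.0915 for Cox7a2l and 0.117 for Cox7b, which was lower by 0.15. Without replicate 2 of 7a it was 0.0828 for Cox7a2l, and without replicate 1 of 7a 0.127 for Cox7b.

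SB24011 with and without cGAMP can be compared in libraries that the contrasts do not share. The 17 genes called lower with 20 uM on cGAMP were all among the 39 called lower with SB24011 alone, which is 100% of the shorter list and 43.6% of the longer. Of the 10 called higher with 20 uM on cGAMP 1, Uqcrq, was called higher with SB24011 alone, which is 10%. Of all genes tested 24.3% were called lower with SB24011 alone and 20.6% with 20 uM on cGAMP. The shares called higher were 20.4% and 21.7%. The overlap of calls over all genes was not counted, so the subunit overlap has no such share beside it. Over the 78 genes with at least 10 CPM, the log2 differences of the contrasts had a Pearson correlation of 0.948 and a Spearman correlation of 0.907, against 0.665 and 0.797 over all 14650 genes tested. These are correlations across genes of the same libraries, which are not independent replicates. Points in the plot of one contrast against the other lie mostly above the line of equal values.

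**Figure D4:**
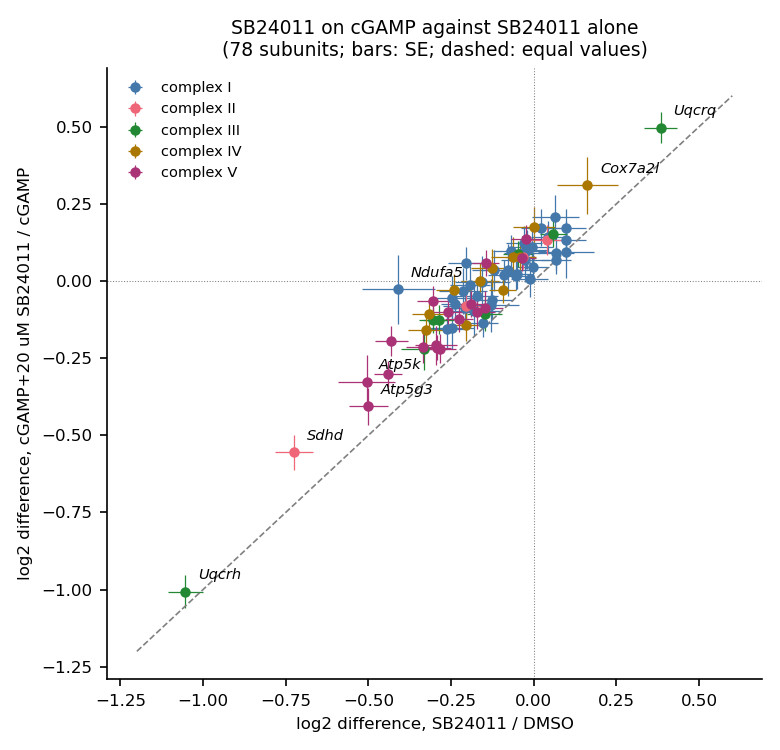
Log2 difference of each of 78 subunit genes with 20 uM SB24011 on cGAMP against cGAMP alone (y axis) and with SB24011 alone against DMSO (x axis), coloured by complex with standard errors as bars; the dashed line marks equal values. Uqcrh lies at -1.05 and -1.01, Sdhd at -0.72 and -0.56, and Uqcrq at 0.38 and 0.50.

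The difference between those contrasts was tested as an interaction. Its median was 0.12 over the subunits and 0.04 over all genes tested, and 3 of 86 subunits were below 0. Over the 1515 tested genes of like length the median was 0.08, nearer to that of the subunits. No single subunit was called in edgeR without a replicate block, DESeq2 or limma on FPKM, with 16 at an unadjusted p under 0.05 in edgeR, where 0.246% of all genes tested were called higher and 0.123% lower. For Uqcrh the interaction was 0.05 (95% interval -0.11 to 0.20), and for Uqcrq 0.11 (-0.03 to 0.26).

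With cGAMP alone, the STING agonist, against DMSO 5 of 86 were called lower and 2 higher, where 19.8% of all genes tested were lower and 15.6% higher. The median log2 difference was -0.06 over both the subunits and all genes tested. The counts depended on how the data were processed. With library size alone, which shifted the median of all genes tested to -0.19, 57 subunits were called lower and 0 higher, and the subunit median was -0.19 as well. With limma on log2(FPKM + 1) 57 were also called lower and 0 higher. There the median was -0.17 over the subunits and -0.11 over all genes tested. The subunits made up 0.982% ± 0.0101 of all counts with cGAMP and 1.11% ± 0.00727 in DMSO (SD, n = 3).

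Ndufb10, a complex I subunit of the membrane arm, had 37.4, 39.5 and 41.9 CPM in the cGAMP libraries, against 46.5, 48.7 and 48.9 CPM in the DMSO libraries. The groups did not overlap, and the log2 difference was -0.28 ± 0.07 (SE, edgeR adjusted p = 0.0048). Ndufs3, a core subunit of the peripheral arm, had 67.3, 65.6 and 65.9 CPM in the cGAMP libraries, against 59.3, 58.0 and 58.4 CPM in the DMSO libraries, a log2 difference of 0.18 ± 0.05 (adjusted p = 0.0082). Its adjusted p was 0.414 with library size alone and 0.0598 without the library set of replicate 1. The other calls were Ndufs8 (-0.18), Atp5d (-0.15), Atp5e (-0.13) and Ndufb8 lower and Ndufb1-ps (0.18) higher. On the FPKM values Atp5d had the opposite sign, 0.20, and was not called.

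The calls of Ndufs8, Atp5d, Atp5e and Ndufb1-ps were each lost in 5 of 6 fits that left out 1 library, with adjusted p-values between 0.0576 and 0.21. Ndufs8 kept its call without DMSO replicate 1, Ndufb1-ps without DMSO replicate 2, and Atp5d and Atp5e without cGAMP replicate 1. The 5 genes called lower became 2 without DMSO replicate 2, 3 without DMSO replicate 3, 1 without cGAMP replicate 2 and 2 without cGAMP replicate 3. The 2 called higher became 1 without DMSO replicate 1 or 3 or without any 1 cGAMP library.

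In the presence of SB24011, adding cGAMP gave 8 subunits called higher and none lower by edgeR against SB24011 alone, with 19 at an unadjusted p under 0.05 and 9 higher and 0 lower by DESeq2. Of all genes tested 15% were called higher and 12.4% lower. The median log2 difference was 0.06 over the subunits, -0.01 over all genes tested and 0.02 over the 1515 genes of like length. Deviations of same-numbered libraries of these groups correlated weakly (0.105 to 0.176), and with the replicate number as a block 17 were called higher. With library size alone, which moved the median of all genes tested to -0.18, 0 were called higher and 18 lower, and the subunit median exceeded that of all genes by 0.08 under either scaling. With limma on log2(FPKM + 1) 0 were called higher and 14 lower, and the excess was only 0.01. Ndufb1-ps and Ndufs3, both higher with cGAMP alone, were the clearest, at 0.28 ± 0.07 and 0.22 ± 0.05 (SE, edgeR adjusted p = 0.00412 and 0.00204). Cox7c, Ndufb6, Cox7a2, Cox6b1, Uqcrc1 and Uqcrc2 were higher by between 0.11 and 0.18.

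Those 6 calls were lost in between 2 and 5 of 6 fits without 1 library, with adjusted p-values up to 0.206, and at least 2 of them were lost whichever library was left out. The 8 genes called higher became 3 without replicate 1 and 2 without replicate 3 of SB24011 alone, and 3 without replicate 1 or 2 of cGAMP with 20 uM SB24011. On FPKM values and with library size alone the sign of Ndufb6, Uqcrc1, Uqcrc2, Cox7a2 and Cox6b1 turned.

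The 13 subunits encoded by the mitochondrial genome, transcribed inside the organelle, were set beside the nuclear ones. With SB24011 alone 4 of 13 fell and none rose, with a median of -0.14, where 24.3% of all genes tested were called lower and the median over them was -0.01. ND3 averaged 83.0 CPM with SB24011 and 142 CPM in DMSO (log2 difference -0.77 ± 0.14, SE; edgeR adjusted p = 0.000266), and ND1 averaged 1899 CPM with SB24011 and 3013 CPM in DMSO (-0.67 ± 0.11). CYTB and ND2 fell by 0.49 and 0.42. The 13 genes together took 2.74% ± 0.267 of counts with SB24011 and 2.85% ± 0.170 in DMSO (SD, n = 3). With cGAMP alone they took 2.298% ± 0.145. ND3 and ND1 also fell on cGAMP, by 0.72 and 0.59 at 10 uM and by 0.73 and 0.60 at 20 uM SB24011. With cGAMP alone against DMSO, 2 of 13 were called lower and none higher, with a median of -0.22. The lower genes were ND3, at -0.39 ± 0.14, and CYTB, at -0.38 ± 0.13 (SE, edgeR adjusted p = 0.0389 and 0.0311). ND1 was not called there, at -0.22. Falls of ND3 and CYTB were thus not limited to SB24011.

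Genes that build and serve the chain were counted in the same comparison, in which 20.4% of all genes tested were called higher and 24.3% lower. No list of these genes was tested against those shares. Of 49 assembly factors 11 rose and 12 fell with SB24011 alone. Bcs1l, the ATPase that inserts the Rieske protein into complex III, averaged 16.4 CPM with SB24011 and 9.24 CPM in DMSO (log2 difference 0.83 ± 0.09, SE; edgeR adjusted p = 1.03e-06), and Pet100, a complex IV factor, fell by 0.60. Cytochrome c, Cycs, which carries electrons between complexes III and IV, averaged 143 CPM with SB24011 and 207 CPM in DMSO (log2 difference -0.54 ± 0.06). Of the 19 electron carrier and ubiquinone genes 6 rose and 1 fell, and Coq8a rose by 1.28 at a level near 1 CPM in DMSO.

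Among the 17 enzymes of the tricarboxylic acid cycle and pyruvate dehydrogenase, 2 rose and 6 fell with SB24011 alone. Dld rose by 0.63, while Idh3a and Ogdh fell by 0.50 and 0.49. The 78 mitochondrial ribosomal protein genes, whose products translate the mitochondrial subunits, had 35 lower and 10 higher, with a median of -0.14. Mrpl18, Mrpl34 and Mrps21 fell by 1.14, 1.04 and 0.99. Of 14 mitochondrial chaperones and proteases 7 rose and 3 fell. Lonp1, the main matrix protease, averaged 372 CPM with SB24011 and 178 CPM in DMSO (log2 difference 1.06 ± 0.07, SE; edgeR adjusted p = 2.3e-09), and the chaperone Hspa9 rose by 0.57.

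Of 20 tested regulators of mitochondrial biogenesis 2 rose and 6 fell with SB24011 alone, where 20.4% of all genes tested were called higher and 24.3% lower. The coactivator Ppargc1b fell by 0.58, the receptor Esrra by 0.53, Yy1 by 0.40 and the GABP subunit Gabpa by 0.18, while Nrf1 and Tfam were not called, at -0.05 and 0.05. With cGAMP alone against DMSO 3 of the 20 rose and 7 fell, where 15.6% of all genes tested were called higher and 19.8% lower. There Ppargc1b and Esrra were also called lower, with log2 differences of -0.45 and -0.36. Yy1 and Gabpa were not called with cGAMP alone, at -0.04 and 0.09. On cGAMP, 20 uM SB24011 lowered Yy1 by 0.58 and Esrra by 0.40, and Nrf1 and Tfam rose by 0.25 and 0.20. With 7a on cGAMP no gene of any of these lists was called, with log2 differences of -0.07 for Esrra and -0.12 for Yy1. Their part in the values of the subunits was not tested.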

How the data were processed

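Per the file headers, each gene and library has a read count, an FPKM and a TPM value in the table the authors deposited. The submitters' processing notes list StringTie 2.1.3b, Bowtie2 2.3.4.1, HISAT2 2.1.0 and Trimmomatic 0.38, and the build GRCm38 (mm10). What each did, how reads were counted, and how strand and multiple positions were handled is not given in the sources used here. A second deposited table of quantile-normalized values was not used. TPM values made by the authors served, without a test, for levels of genes and for medians and shares by group, and the deposited FPKM values only for an alternative test.

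Counts were fitted in edgeR 4.0.16 (R 4.3.3): filterByExpr kept 14650 genes, TMM set the library scale, and 1 robust quasi-likelihood model with 12 residual degrees of freedom covered the 6 groups. Two-sided F-tests gave 9 comparisons, 8 pairs of groups and the interaction, with Benjamini-Hochberg adjustment across the 14650 genes. Fold changes use a prior count of 0.125. SE comes from the F statistic, and 95% intervals from the model. The script was tested on simulated data. Totals mean that 3 counts equal 0.0456 to 0.0664 CPM, for counting error only.

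Members and gene lists were chosen with earlier results of these data known. In each comparison and complex, the called members with the largest absolute log2 difference and at least 1 CPM were named, up to 4 for complexes I and V and up to 3 for the others. Paralog sets were also named, as were up to 3 called genes of each other list and some of its regulators. Other members are named as examples.

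Library numbers give each group replicates 1, 2 and 3, from 3 numbered sets of libraries. Deviations from group means of same-numbered libraries correlated over 0.1 in every pair for SB24011 against DMSO (0.125 to 0.178), 7a on cGAMP (0.137 to 0.183) and cGAMP with 20 uM SB24011 against SB24011 (0.105 to 0.176), so that the numbers were taken to pair these. These correlations are weak. In the other comparisons of groups the lowest pair was under 0.1, although the highest reached 0.232. Alternatives were RLE size factors, library size alone, no filter, the replicate block, the compared groups alone, leaving out libraries, limma 3.58.1 on log2(FPKM + 1) or log2(FPKM + 0.1), and DESeq2 1.42.0. Promoters came from RefSeq GRCm38.p6.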

Additional observations from a re-analysis of the deposited data

How the results depend on the processing

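Over 74 member results named with a test, 899 values under the alternatives kept direction and side of the threshold, 192 kept direction only and 19 turned sign; the cause was not tested. Counts of subunits called are given as higher and lower. With library size alone they were 0 and 57 for cGAMP against DMSO, 4 and 23 for SB24011 against DMSO, 10 lower for cGAMP with 20 uM SB24011 against cGAMP, 4 higher for 10 uM, and 0 and 18 for cGAMP with 20 uM SB24011 against SB24011. With limma on FPKM at either pseudocount no subunit was higher (0) with cGAMP against DMSO, and 57 and 58 were lower; for cGAMP with 20 uM SB24011 against SB24011, 0 were higher and 14 and 13 lower. With RLE size factors 1 was lower with cGAMP against DMSO, and 3 higher for cGAMP with 20 uM SB24011 against SB24011. DESeq2 gave 3 lower with cGAMP against DMSO and 3 higher with SB24011 against DMSO.

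Without a filter on low counts, 1 was higher with cGAMP against DMSO, 2 with SB24011 against DMSO and 3 for cGAMP with 20 uM SB24011 against SB24011. With the replicate block, 16 were lower with cGAMP against DMSO, 2 higher with SB24011 against DMSO, 5 higher with 10 uM SB24011 on cGAMP, 17 higher for cGAMP with 20 uM SB24011 against SB24011, and 3 higher in the interaction; same-numbered libraries were taken to pair only for SB24011 against DMSO, 7a against cGAMP and the contrast of cGAMP with 20 uM SB24011 against SB24011.

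With only the compared groups in the fit, 1 was lower with cGAMP against DMSO, 2 higher and 11 lower with 20 uM SB24011 on cGAMP, 1 higher with 10 uM, 2 higher and 9 lower against 7a, and 2 higher for cGAMP with 20 uM SB24011 against SB24011. Without the library set of replicate 1, 0 were higher with cGAMP against DMSO, 4 higher and 11 lower with 20 uM SB24011 on cGAMP, 10 lower against 7a, and 3 higher for cGAMP with 20 uM SB24011 against SB24011.

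Leaving out 1 library at a time gave 1 to 3 higher and 1 to 5 lower with cGAMP against DMSO, 1 to 3 and 31 to 40 with SB24011 against DMSO, 3 to 7 and 11 to 16 with 20 uM SB24011 on cGAMP, 1 to 3 and 24 to 26 with 10 uM, 1 to 5 and 13 to 17 against 7a, 2 to 7 and 0 for cGAMP with 20 uM SB24011 against SB24011, and 0 in the other comparisons.

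The sign turned on FPKM + 1 and FPKM + 0.1 for Atp5d with cGAMP against DMSO (0.201 and 0.203) and for Cox7a2 with 20 uM SB24011 against 7a (0.293 and 0.296). For cGAMP with 20 uM SB24011 against SB24011, the values with library size alone, FPKM + 1 and FPKM + 0.1 were -0.0118, -0.00204 and -0.00206 for Ndufb6, -0.0514, -0.0409 and -0.0412 for Uqcrc1, -0.0575, -0.0476 and -0.048 for Uqcrc2, -0.0221, -0.0302 and -0.0305 for Cox7a2 and -0.0268, -0.0163 and -0.0163 for Cox6b1. Of the 86 tested genes 78 average at least 10 CPM and 8 less; with 3 libraries a group and unknown culture origin, small differences are the least certain.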
